A study of Mus musculus with 24 samples.

Results

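The 2 control lines of a set of glycoengineered MC38 cells were compared with each other, MC38-MOCK#2 against MC38-MOCK#1, each with 3 samples out of the 24 samples of 8 lines. All genes with at most 4 zeros among the 6 samples were taken, which left 21667 of the 52636 genes in the table. MC38 is a mouse colorectal cancer cell line from the C57BL/6 strain. The other lines are the unmodified MC38-WT, knockouts of Cmas, of C1galt1c1 (Cosmc) and of both genes, and lines labelled FUT4 and FUT9.

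Both mock lines carry no target gene. MOCK#1 is labelled CRISPR-Cas9 and gene knockout, and is the reference of the knockout lines. The methods of the study describe the mock of the knockouts as cells that received an empty Cas9 construct by lipofection, and whether they were selected or sorted is not given in the sources used here. MOCK#2 is labelled CRISPR-dCas-VPR and gene overexpression, where VPR is a fusion of transcriptional activators on a Cas9 that cannot cut, and it is the reference of the lines FUT4 and FUT9. How MOCK#2 was made is not given in the sources used here. MOCK#1 was harvested at passages 4, 5 and 6, and MOCK#2 at passages 6, 7 and 8, which are samples 1, 2 and 3 of either line. All samples of a line come from a single population harvested at separate times, so p-values measure the spread between harvests. Line, construct and the higher passage of MOCK#2 cannot be told apart, except that both lines were harvested at passage 6, MOCK#1 as sample 3 and MOCK#2 as sample 1.

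A mock line is handled like its edited relatives but without an edit, so that changes due to handling appear in the line and its edited relatives alike. Populations that are handled separately can each come to hold another mixture of the parental cells. MC38 is widely used as a tumor grafted into mice of its own strain.

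The deposited values are gene counts after 1 scaling factor for each library and rounding, here called normalized counts. Their totals lay between 10911849 and 11457909 in the 6 samples, and the reads behind them were estimated at 8189005 to 12932311, with the fewest in MOCK#2 sample 3. This sample also stood furthest from the other samples of its line. Over 10886 genes with a mean of at least 50 its median absolute log2 difference from the mean of the other 2 was 0.178, against 0.0874 to 0.147 for the remaining 5 samples. Between the means of the lines the same quantity was 0.2. The labelled tissue was checked against marker genes. All 14 markers of intestinal epithelium, among them Epcam, Cdh1, Cdx1, Cdx2, Krt20 and Vil1, summed to between 9 and 30 normalized counts per sample, and Cldn3, Cldn7 and Cdx1 were at 0 throughout. Vim, the intermediate filament of mesenchymal cells, held 21222 to 28137 normalized counts and made up most of the sum of the mesenchymal markers. Of the 11 mesenchymal markers tested, 6 had a mean of at least 50 over the 6 samples. The epithelial markers were thus near absent, while the level of the mesenchymal list rested mainly on Vim. By limma 0 of the 7 epithelial markers tested and 0 of the 6 leukocyte markers tested differed, with 0 and 1 at an unadjusted p below 0.05 and 0 and 0 with all 24 samples in a single fit. Of the 2 endothelial markers tested 1 was higher, Vwf, with 1, 3 and 2 against 9, 13 and 29 (log2 fold change 2.48, adjusted p = 0.0277 from limma), a call lost in each of 6 refits that left out 1 library (adjusted p up to 0.101). The 12 leukocyte markers summed to 37 to 75, with Cd3e, Cd4, Cd8a and Adgre1 at 0, and the 7 endothelial markers to 4 to 36, led by Vwf.

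The genes targeted in the other lines were looked at first, since neither mock line should differ in them. C1galt1c1 (chromosome X, 38630785 to 38635087 of GRCm38), the chaperone of the T-synthase, had 242, 220 and 251 normalized counts in MOCK#1 and 173, 154 and 217 in MOCK#2. Its log2 fold change was -0.40 (95% confidence interval -0.74 to -0.06, adjusted p = 0.131 from limma), although the samples of the lines did not overlap. Without MOCK#2 sample 3 the log2 fold change was -0.54 and the adjusted p was 0.0485, which passes the threshold. Cmas, which activates sialic acid, had 416, 384 and 386 against 283, 348 and 319, a log2 fold change of -0.32 (95% confidence interval -0.56 to -0.09, adjusted p = 0.0839 from limma). Both intervals lay below 0, and 0 of the 3 targets tested were DEGs by limma, with 2 at an unadjusted p below 0.05 and 0 with all 24 samples in a single fit. Fut9 was at 0 or 1 in every mock sample and Fut4 was at 0, so Fut4 was not tested. Of the fucosyltransferases targeted for overexpression, Fut4 was thus not detected at this depth in either mock line, and Fut9 was near 0.

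Across all genes the 2 controls differed. Of the 21667 genes tested, 2454 or 11.3% had an adjusted p below 0.05 and are called DEGs here. They divide into 1149 that were higher in MOCK#2, or 5.3%, and 1305 that were lower, or 6.02%. The DEGs were not all small differences, as 385 of those higher and 679 of those lower had an absolute log2 fold change above 1. The share called was 3.61% of 8247 genes with a mean up to 10 and 13.7% of 2543 genes up to 50, and lay between 16.3% and 16.8% in all bins above that. Where the mean was at least 50 it was 16.6%, so the shares of the lists below are to be read against both 11.3% and 16.6%. The 3 samples of either line did not overlap in 28.7% of all genes tested. Left out in turn, samples 1, 2 and 3 of MOCK#1 gave 929, 634 and 1521 DEGs, and samples 1 and 2 of MOCK#2 gave 1336 and 950, while 1708 were left without sample 3 of MOCK#2. With passage as a covariate 583 genes were called. Log2 fold changes are on the scale of log2(normalized count + 1), which understates changes of low genes.

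**Figure D1:**
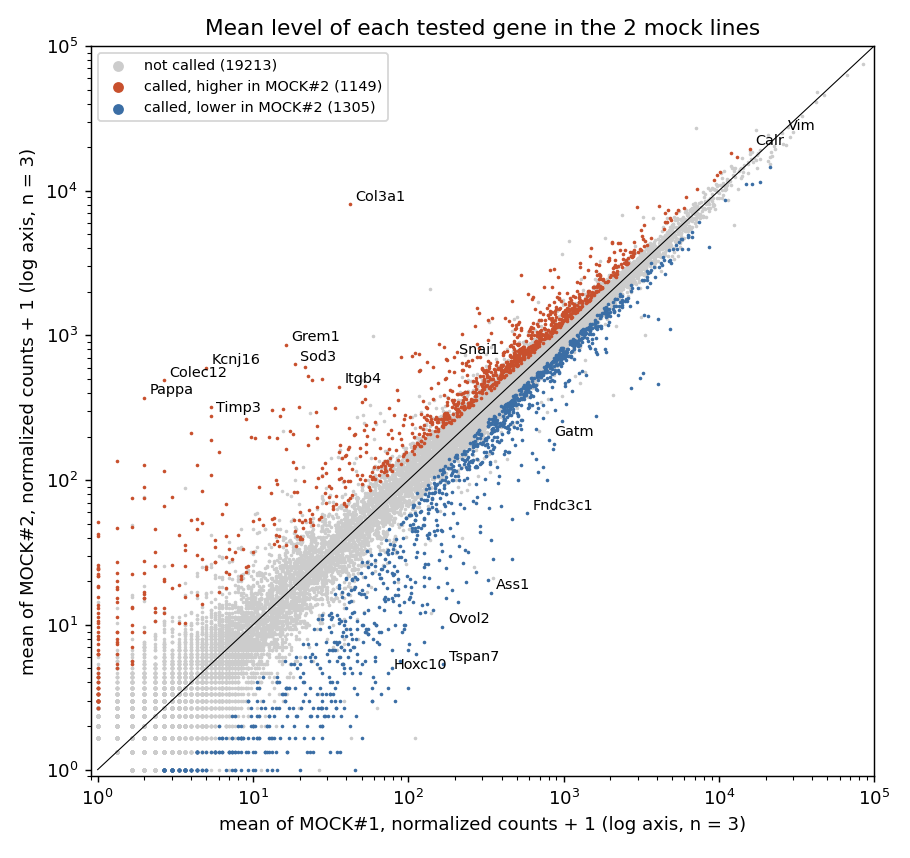
Mean normalized count plus 1 of each of 21667 tested genes in MOCK#1 (horizontal, log axis) and MOCK#2 (vertical, log axis), 3 samples each. Red and blue points are DEGs, 1149 higher and 1305 lower in MOCK#2. Genes such as Col3a1 and Pappa lie far above the diagonal, while Vim lies on it.

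The 12 largest differences upward were led by Pappa and Col3a1. Pappa (chromosome 4, 65124174 to 65357509), a secreted protease that cleaves IGF-binding proteins, had 0, 3 and 0 normalized counts in MOCK#1 and 336, 307 and 469 in MOCK#2, a log2 fold change of 7.85 (SE 0.569, adjusted p = 0.00101 from limma). Col3a1 (chromosome 1, 45311538 to 45349706), the chain of type III collagen, had 34, 24 and 65 against 5601, 5020 and 13474. Its mean was 41 ± 21.4 in MOCK#1 and 8030 ± 4720 in MOCK#2 (SD, n = 3), 196-fold apart, with a log2 fold change of 7.55 (SE 0.47, adjusted p = 0.000681 from limma). The highest value came from MOCK#2 sample 3, and without that sample the log2 fold change was 7.10 (adjusted p = 0.00841). Colec12, a scavenger receptor of the collectin family, stood at 2, 2 and 1 against 433, 494 and 543. Kcnj16, a subunit of inward rectifier potassium channels, stood at 3, 6 and 3 against 407, 557 and 826. All of these genes were chosen for samples that do not overlap between the lines.

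Grem1, Timp3 and Acvrl1 were also among the 12 largest differences upward. Grem1 (chromosome 2, 113746164 to 113758646), an antagonist of BMP ligands, had 19, 13 and 14 normalized counts in MOCK#1 and 636, 901 and 1044 in MOCK#2, 56.1-fold apart (log2 fold change 5.71, SE 0.226, adjusted p = 0.000176 from limma). Timp3, a matrix-bound inhibitor of metalloproteinases, had 5, 4 and 4 against 225, 249 and 359, 64.1-fold apart. Acvrl1, a type I receptor of the TGF-beta family, stood at 2, 1 and 0 against 96, 99 and 181. The remaining genes were Agt (angiotensinogen), Arhgap30 (a GTPase-activating protein), Stxbp2 (a syntaxin-binding protein of exocytosis), Mrgprf (an orphan receptor) and Stra6 (the receptor of retinol-binding protein), with log2 fold changes of 5.66 to 6.09. Agt rested partly on MOCK#2 sample 3, with 36, 52 and 319 against 1, 0 and 0. Its call was lost without MOCK#1 sample 2 (adjusted p = 0.0666). That of Stra6 was lost without sample 2 of either line (adjusted p up to 0.0615). The other 10 calls held whichever library was left out. With passage as a covariate Agt and Stra6 were lost as well (adjusted p = 0.0982 and 0.0869).

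The 5 higher DEGs with the smallest adjusted p among those with a mean of at least 500 in MOCK#2 were led by Sod3. It codes for the extracellular superoxide dismutase and had 16, 15 and 22 normalized counts in MOCK#1 and 629, 640 and 617 in MOCK#2 (log2 fold change 5.09, SE 0.164, adjusted p = 0.000129 from limma). Foxf2, a forkhead transcription factor of mesenchyme, had 213, 212 and 234 against 890, 1082 and 1093. Cacna1c, the pore of an L-type calcium channel, had 174, 159 and 175 against 747, 799 and 954. Kcnj16 and Grem1 complete the 5.

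Downward, the largest differences were in genes at moderate levels in MOCK#1. Tspan7 (chromosome X, 10485158 to 10596605), a tetraspanin, had 204, 137 and 159 normalized counts in MOCK#1 and 6, 3 and 4 in MOCK#2, 38.5-fold apart (log2 fold change -4.99, SE 0.292, adjusted p = 0.000549 from limma). Ass1, the argininosuccinate synthase of arginine synthesis, had 442, 338 and 234 against 23, 17 and 7, 21.6-fold apart. Ovol2 (chromosome 2, 144305175 to 144332146), a zinc finger factor that restrains epithelial-mesenchymal transition, had 194, 167 and 134 against 11, 7 and 8, 19-fold apart. The ranges of the lines are separated by more than a factor of 10 in each of these genes. Pdpn (podoplanin, a mucin-type glycoprotein), Nutm1, Tmem171, 2200002D01Rik, Clec1a (a C-type lectin) and Asb4 also fell, with log2 fold changes of -4.51 to -4.13. Tigit, an inhibitory receptor of T and NK cells, and Ush1g, a scaffold protein of sensory hair cells, fell by 4.92 and 4.32 on the log2 scale. The call of Tigit was lost without MOCK#1 sample 1 or sample 2 (adjusted p up to 0.0663), and that of Ush1g without any 1 of the MOCK#1 samples (adjusted p up to 0.0791). With passage as a covariate Tigit, Ush1g and Pdpn were lost (adjusted p of 0.0543 to 0.0911). Among well expressed genes the smallest adjusted p included those of Fndc3c1, Sgsm1 (a modulator of small GTPases), Afp (alpha-fetoprotein) and Gatm, the first enzyme of creatine synthesis. Gatm had 920, 802 and 683 against 199, 177 and 189, and the log2 fold changes of the 4 lay between -3.31 and -1.95.

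**Figure D2:**
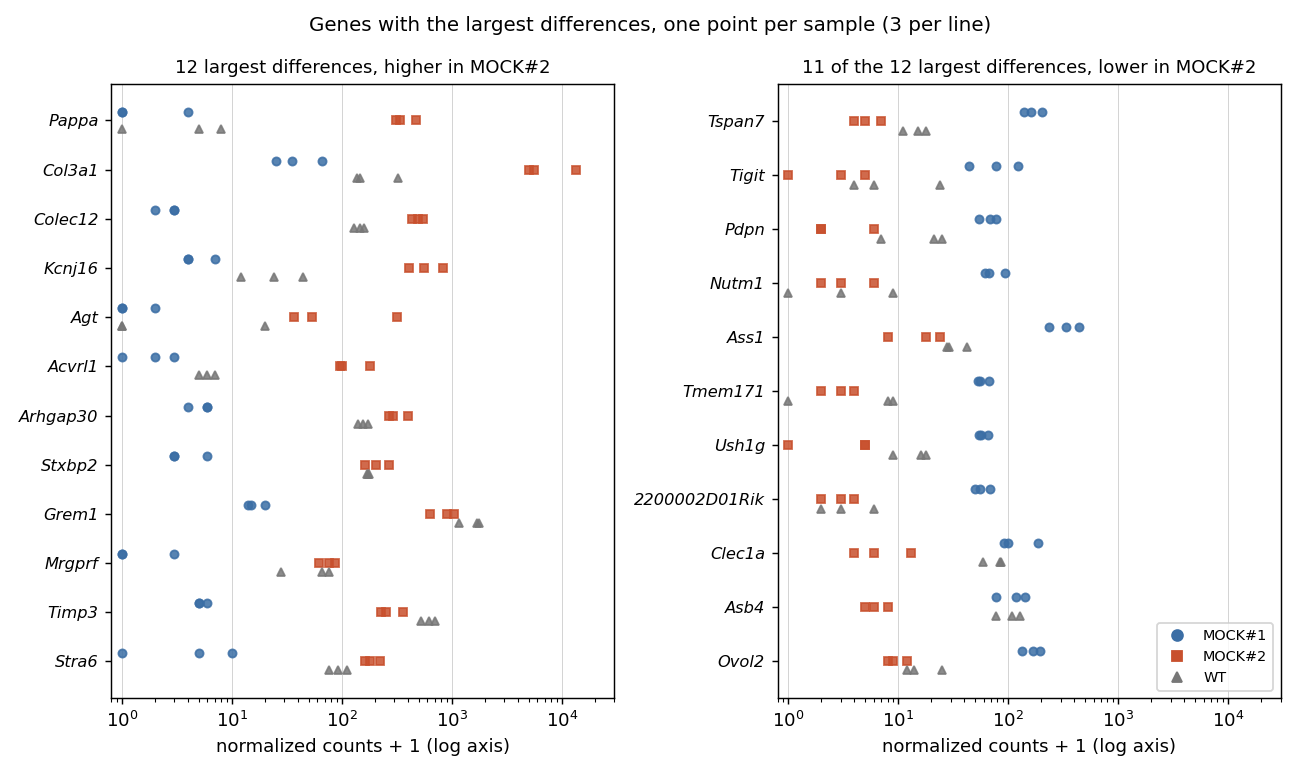
Normalized count plus 1 (log axis) of the 12 DEGs with the largest differences upward and 11 of the 12 downward, with MOCK#1 as circles, MOCK#2 as squares and MC38-WT as triangles, 1 point per sample and 3 per line. The genes were chosen for no overlap between the mock lines. MC38-WT lies near MOCK#2 for Grem1, Timp3 and Stxbp2, with MOCK#1 for Pappa and Asb4, and in between for Colec12.

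A set of genes was on in one line and off in the other, by the rule of at most 3 normalized counts in every sample of one line and at least 20 in every sample of the other. It held 22 genes that were off in MOCK#1 and 28 that were off in MOCK#2. Mmp2, a gelatinase, had 0, 0 and 0 against 29, 35 and 87, which is at least 16.8-fold higher against a floor of 3 per library. Robo3 (a guidance receptor), B3galnt1 (the globoside synthase), Ube2d2b and Prelid3a were also at 0 in all 3 samples of MOCK#1. In the other direction, Ccdc36 had 58, 41 and 35 against 0, 0 and 0, at least 14.9-fold lower. Nfasc (a neural adhesion protein), Bcam (a laminin receptor), Ryr1 (a calcium release channel), Hcn2 (a pacemaker channel) and Cers4 (a ceramide synthase) were likewise on in MOCK#1 and off in MOCK#2. Xlr4b and Xlr4c, and Rhox2a, have near-identical copies, and Dhx58os and Gm16263 lie antisense to other genes, so that their counts are uncertain. Of all 21667 genes tested, 449 were at 0 in every MOCK#1 sample and 743 in every MOCK#2 sample, and 151 of these were DEGs. MOCK#2 sample 3 had the fewest estimated reads, so the lines were not compared at equal depth here.

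The extracellular matrix was among the groups with the most DEGs. Of 38 tested collagens and matrix proteins, 6 were higher and 8 lower (36.8%), with a median log2 fold change of 0.04 against -0.01 over all genes tested. Those that were higher were the fibrillar collagens Col3a1, Col5a2 and Col1a1, the thrombospondins Thbs1 and Thbs2, and Fbln2, a fibulin. Thbs1 had 18, 19 and 32 normalized counts in MOCK#1 and 345, 384 and 753 in MOCK#2, 21.5-fold apart. Those that were lower belong mostly to basement membranes, among them Col4a1, Col4a2, Lama1, Lamb1, Lamc1 and the anchoring collagen Col7a1, together with Col8a1. Col4a1 had 6357, 5884 and 6622 against 4704, 3725 and 3397, a log2 fold change of -0.69 (SE 0.125, adjusted p = 0.0179 from limma). The 8 lower genes had a median log2 fold change of -1.05, and the 6 higher ones of 3.60. The calls of Col3a1, Col5a2, Thbs1, Fbln2 and Col8a1 held whichever library was left out, but those of Col5a2 and Col8a1 were lost with passage as a covariate (adjusted p = 0.0568 and 0.0537). That of Col1a1 was lost without MOCK#1 sample 1 or 2 (adjusted p up to 0.0569), and the other 7 named here held in at most 1 of the 6 refits (adjusted p up to 0.125).

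Integrins, the cell surface receptors of these proteins, changed in the same comparison in 5 of 13 tested members (38.5%), 2 higher and 3 lower. Itgb4 (chromosome 11, 115974709 to 116008412), a laminin receptor chain of hemidesmosomes, had 36, 33 and 35 normalized counts in MOCK#1 and 396, 425 and 499 in MOCK#2, 12.7-fold apart (log2 fold change 3.62, SE 0.128, adjusted p = 0.000129 from limma). Its partner chain Itga6 had 1280, 1431 and 1056 against 571, 619 and 448, 2.3-fold lower. Itga7 and Itga3, further chains that bind laminin, had log2 fold changes of -3.39 and -1.46. The 2 chains that pair with each other thus moved in opposite directions. Itgb8 rose from 0, 1 and 2 to 11, 12 and 57, but its call was lost in each of the 6 refits (adjusted p up to 0.115). Those of Itgb4 and Itga7 were kept in all 6, Itga6 was lost without MOCK#1 sample 1 or 2 (adjusted p up to 0.0542), and Itga3 without MOCK#1 sample 2, MOCK#2 sample 2 or MOCK#2 sample 3 (adjusted p up to 0.0864). Itgb1, the common partner of many alpha chains, had 8007 to 8213 against 7353 to 7696 (log2 fold change -0.11, adjusted p = 0.269).

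Among enzymes that degrade the matrix and their inhibitors, 6 of 23 tested genes were higher and 3 lower (39.1%), and the median log2 fold change was 0.54. Besides Timp3 and Mmp2, the higher genes included Mmp3 (stromelysin 1), Mmp14 (a membrane-bound activator of Mmp2) and the inhibitor Timp2. Mmp14 had 747, 746 and 893 normalized counts against 1182, 1273 and 1705. Plaur, the receptor of urokinase, had 1424, 1228 and 1258 against 605, 608 and 483 and fell 2.31-fold (adjusted p = 0.00218), while Adam8 and Adam17, which release membrane proteins, had log2 fold changes of -1.11 and -0.30. Both proteases and their inhibitors were therefore among the higher genes. The calls of Timp3, Mmp2, Mmp3 and Plaur held in all 6 refits, and that of Mmp3 was lost with passage as a covariate (adjusted p = 0.0579). Mmp14, Timp2, Adam8 and Adam17 held in at most 2 (adjusted p up to 0.14).

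Regulators of epithelial-mesenchymal transition moved at both ends. Of 22 tested regulators and cadherins, 3 were higher and 3 lower (27.3%), with a median of -0.08. Snai1, a repressor of epithelial genes, had 228, 171 and 188 normalized counts in MOCK#1 and 704, 607 and 800 in MOCK#2, 3.6-fold apart (log2 fold change 1.84, SE 0.144, adjusted p = 0.00125 from limma). Prrx1 and Zeb1, factors of the mesenchymal state, rose by 1.59 and 0.87. Ovol2 and Esrp1, an epithelial splicing factor, fell, and so did Cdh2, the N-cadherin of mesenchymal cells, with 433, 425 and 393 against 153, 173 and 147. The marker that defines the epithelial state, Cdh1, stayed between 0 and 2 in both lines, and Vim had a log2 fold change of -0.04 (95% confidence interval -0.35 to 0.26). Zeb1 was lost without MOCK#1 sample 1, MOCK#1 sample 2 or MOCK#2 sample 1 (adjusted p up to 0.0723), Esrp1 in 5 of 6 refits (adjusted p up to 0.0971), and the other 4 calls in none.

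Of 11 tested mesenchymal markers, 4 were higher and 0 lower (36.4%, against 11.3% of all genes and 16.6% with a mean of at least 50). Col3a1 and Col1a1 are among them and are also counted among the matrix proteins. Of the 4 calls, 1 held in all 6 refits and 1 was kept with passage as a covariate. Pdgfrb, a receptor of platelet-derived growth factor, had 61, 65 and 189 against 471, 581 and 1100, and S100a4 had 206, 242 and 223 against 305, 373 and 513. The calls of both held in 1 of the 6 refits (adjusted p up to 0.156). Pdgfra, Acta2 and Vim did not pass the test, and the median of the list was 0.79, or 0.41 with genes at 0 in one line set to their bound. The summed level of the 12 markers was 23694 to 29107 in MOCK#1 and 32888 to 37347 in MOCK#2, and its part in the matrix and metalloproteinase results was not tested. In RNA of whole cultures, fewer cells of a type and less RNA per cell cannot be told apart.

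Ligands, antagonists and receptors of the TGF-beta and BMP pathway gave 4 higher and 2 lower of 30 tested (20%), with a median of -0.01. Bmper, a secreted BMP modulator, had 28, 26 and 26 normalized counts against 441, 370 and 695 (log2 fold change 4.13, SE 0.232, adjusted p = 0.000548 from limma). Grem1 and Bmper were the members with the largest rises. Inhba, the activin A chain, had 10, 6 and 9 against 29, 17 and 27, and Fstl1, a follistatin-like protein, 958, 1131 and 1551 against 2007, 2544 and 2486. Bmp7 had 7, 4 and 8 against 0, 0 and 0, and Skil, a repressor of SMAD proteins, fell by 0.37. The calls of Grem1, Bmper and Bmp7 held in all 6 refits, that of Bmp7 was lost with passage as a covariate (adjusted p = 0.0725), and those of Inhba, Fstl1 and Skil in at most 1 (adjusted p up to 0.138).

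Feedback regulators of MAPK signaling and immediate early genes gave 4 higher and 6 lower of 31 tested (32.3%), with a median of 0.30. The EGF receptor ligands Hbegf and Areg, the phosphatase Dusp4, the receptor Epha2 and the transcription factors Fosl1 and Etv4 were lower, with log2 fold changes of -1.17 to -0.44. Fosl1 had 1624, 1406 and 1520 normalized counts against 976, 978 and 869, and was the only call of this list that held in all 6 refits (adjusted p = 0.0047 with all samples). It was lost with passage as a covariate (adjusted p = 0.061). Jun, Ier2, Phlda1 and Spred1 were higher, and the first 3 of these also spread widely within a line. Jun had 3657, 1854 and 3446 against 5052, 8318 and 9891, and its call was lost in each of the 6 refits (adjusted p up to 0.154). Dusp4 was lost without MOCK#1 sample 2 (adjusted p = 0.0552) and Etv4 without sample 2 of either line (adjusted p up to 0.0736), while the remaining 6 calls held in at most 2 refits (adjusted p up to 0.205).

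In cholesterol and fatty acid synthesis most of the genes that changed were higher in MOCK#2. Cholesterol is built from acetyl-CoA through mevalonate and squalene, and the genes are driven together by SREBP-2 when sterols are low. Of 31 tested members, 8 were higher and 1 lower (29%), and the median log2 fold change was 0.40. Hmgcs1 (chromosome 13, 119690379 to 119708260), which makes HMG-CoA, had 1752, 2166 and 2185 normalized counts in MOCK#1 and 3564, 4732 and 4855 in MOCK#2, 2.15-fold apart (log2 fold change 1.1, SE 0.145, adjusted p = 0.00621 from limma). Sqle and Lss, which oxidize and cyclize squalene, rose by 0.77 and 0.76, Mvk, the mevalonate kinase, by 0.74, and Cyp51, Msmo1 and Ebp, of the late steps, by 0.63, 0.63 and 0.49. Srebf2, which encodes SREBP-2, rose by 0.43. The samples of the lines did not overlap for Hmgcs1, as for all 2454 DEGs.

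The 8 higher genes of this list differed less where passages match. Averaged over the 31 genes, log2(normalized count + 1) was 10.9, 11.15 and 11.34 in the samples of MOCK#1. In MOCK#2 it was 11.3, 11.43 and 11.43. The list thus also rose within MOCK#1, and at passage 6 its average was 11.34 in MOCK#1 and 11.3 in MOCK#2. This average includes the 1 lower gene of the list, which lowers it in MOCK#2, and each line has 1 sample at passage 6. With passage as a covariate 0 genes of the list were called higher and 2 lower. At passage 6, Hmgcs1 had 2185 in MOCK#1 and 3564 in MOCK#2, a log2 difference of 0.71 against 1.1 over all samples. The other 7 differed by 0.25 to 0.51 there, and with passage as a covariate the adjusted p of the 8 genes lay between 0.0508 and 0.339. Over all DEGs the median at passage 6 was 0.58 for those higher and -1 for those lower, beside 0.67 and -1.08 for all samples. Of the 8 calls, that of Hmgcs1 was lost without MOCK#1 sample 2 (adjusted p = 0.0543), Sqle and Lss without sample 2 of either line (adjusted p up to 0.0762), and the other 5 held in at most 2 refits (adjusted p up to 0.151).

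The 250 bases before the start of 4 of the higher genes are shown because SREBP-2 binds cholesterol genes next to the factor NF-Y, whose site is the CCAAT box. They come from RefSeq on GRCm38.p6, which held promoters of 21 of the 31 genes of the list. Sqle was not among them. Hmgcs1 lies on the plus strand at chr13:119690101-119690350, Lss on the plus strand at chr10:76531355-76531604, Cyp51 on the minus strand at chr5:4104698-4104947 and Mvk on the plus strand at chr5:114444019-114444268. Capitals mark TCACNCCAC, a form of the sterol regulatory element, and CCAAT, each on either strand.
Hmgcs1: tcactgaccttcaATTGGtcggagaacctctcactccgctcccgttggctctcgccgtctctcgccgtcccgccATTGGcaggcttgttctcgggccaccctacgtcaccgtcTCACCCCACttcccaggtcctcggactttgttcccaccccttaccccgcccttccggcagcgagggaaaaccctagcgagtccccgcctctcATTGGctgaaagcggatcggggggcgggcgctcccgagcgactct
Lss: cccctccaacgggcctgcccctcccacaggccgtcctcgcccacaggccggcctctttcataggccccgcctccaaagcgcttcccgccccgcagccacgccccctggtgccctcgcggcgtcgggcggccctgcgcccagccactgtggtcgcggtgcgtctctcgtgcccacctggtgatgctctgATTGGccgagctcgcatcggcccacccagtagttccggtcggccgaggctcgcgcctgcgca
Cyp51: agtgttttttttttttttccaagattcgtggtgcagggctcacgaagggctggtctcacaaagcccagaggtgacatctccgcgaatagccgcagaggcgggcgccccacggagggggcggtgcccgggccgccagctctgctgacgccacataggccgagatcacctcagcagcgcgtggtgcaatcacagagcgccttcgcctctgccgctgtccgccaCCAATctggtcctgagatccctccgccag
Mvk: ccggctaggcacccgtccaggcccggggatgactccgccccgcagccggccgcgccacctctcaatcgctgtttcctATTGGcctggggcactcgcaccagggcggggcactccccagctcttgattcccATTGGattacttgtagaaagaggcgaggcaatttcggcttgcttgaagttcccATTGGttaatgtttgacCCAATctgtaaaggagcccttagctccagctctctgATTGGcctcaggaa
The letters TCACNCCAC occurred once in Hmgcs1 and in none of the other 3, and among the 21 genes with a promoter in Hmgcs1 only, against 1.22% of all 27025 genes searched. CCAAT occurred in 18 of the 21, against 37.5% of all genes. Other forms of the sterol regulatory element were not searched, so a window without these letters may still hold one. A match of letters is a description of this window, and binding was not measured. Hmgcs1 held 3 CCAAT boxes, Mvk 5, and Lss and Cyp51 1 each.

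**Figure D3:**
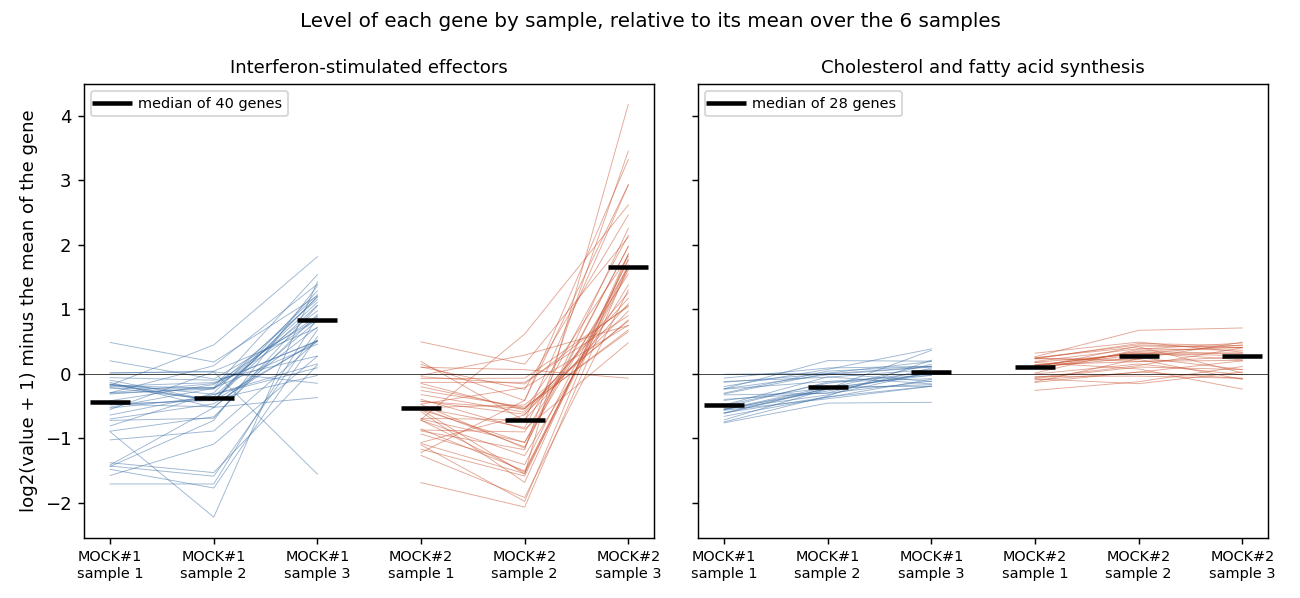
Log2(normalized count + 1) minus the mean of the gene over the 6 samples, for 40 interferon-stimulated effectors and 28 of the 31 genes of cholesterol and fatty acid synthesis. Thin lines join the samples of a cell line for 1 gene, in blue for MOCK#1 and red for MOCK#2, and black bars are medians. Effectors are highest in sample 3 of both lines, while the medians of the cholesterol genes are higher in MOCK#2.

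Interferon-stimulated genes, which cells switch on in response to viral nucleic acid or interferon, varied more within the lines than between their means. Of 40 tested effectors 0 were DEGs by limma, and the median log2 fold change was 0.01. At an unadjusted p below 0.05 there were 2, and 1 was called with all 24 samples in a single fit. With passage as a covariate 0 were called, with 18 at an unadjusted p below 0.05. Without MOCK#2 sample 3, 1 was called, and it was lower in MOCK#2. Averaged over the 40 genes, log2(normalized count + 1) at passage 6 was 7.8 in MOCK#1 and 6.55 in MOCK#2, 1 sample each. In the other samples it was 6.54 and 6.6 in MOCK#1 and 6.27 and 8.74 in MOCK#2. Isg15, an antiviral ubiquitin-like protein, had 74, 122 and 521 normalized counts in MOCK#1 and 140, 113 and 896 in MOCK#2. Oasl2, a relative of the oligoadenylate synthetases, had 287, 294 and 986 against 322, 226 and 1856. Sample 3 was the highest of its line for 37 of the 40 genes in MOCK#1 and for 39 in MOCK#2, at a median of 2.5 and 5.78 times the mean of the other 2 samples. Only Ifit2 and Lgals3bp did not overlap between the lines. Lgals3bp had 207, 186 and 593 against 760, 598 and 2343 (log2 fold change 1.84, adjusted p = 0.111). Of 25 genes that sense nucleic acid and carry the signal, 1 was higher, the kinase Tbk1, with 504, 509 and 556 against 781, 791 and 858 (log2 fold change 0.63, SE 0.0751, adjusted p = 0.0046 from limma), a call that held in all 6 refits and was lost with passage as a covariate (adjusted p = 0.0521).

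Genes of MHC class I and antigen processing lay lower in MOCK#2 by a median of -0.34, but how many passed the test depended on the fit. H2-Q4, a non-classical class I gene, and Psmb10, a subunit of the immunoproteasome, were lower by 1.01 and 0.34, and Calr, a chaperone of class I assembly, was higher by 0.29, so 3 of 21 were DEGs (14.3%). Without a trend 0 were called (7 at an unadjusted p below 0.05), and 7, of them 6 lower, both with all 24 samples in a single fit and over genes whose mean reached 10. The samples of the lines did not overlap for 9 of the 21 (42.9%, against 28.7% of all genes). The share of all genes includes many low genes, so it is not a like yardstick. In other lists it was 5% for interferon-stimulated effectors, 34.2% for cell cycle genes and 76.9% for integrins. The classical gene H2-K1 had 5030, 4788 and 6656 normalized counts against 3250, 2864 and 4471 (log2 fold change -0.65, adjusted p = 0.0771), and H2-D1 had 4954, 4383 and 5649 against 3385, 3010 and 4248 (adjusted p = 0.0756). Cd274, which encodes PD-L1, had 181, 151 and 181 against 95, 89 and 141 (adjusted p = 0.0733). Their samples did not overlap and the threshold was missed. B2m and Tap1 had log2 fold changes of -0.11 and -0.24 with overlapping samples. The calls of H2-Q4, Calr and Psmb10 held in 0, 1 and 3 of the 6 refits (adjusted p up to 0.15).

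Of 17 enzymes of O-glycan initiation and branching 1 was a DEG (5.88%), while 7 did not overlap between the lines (41.2%, against 28.7% of all genes, many of them low). At an unadjusted p below 0.05 there were 6, and with all 24 samples in a single fit 3, of them 2 lower. Gcnt4, a core 2 branching enzyme, had 65, 70 and 80 against 125, 122 and 211 (log2 fold change 1.04, adjusted p = 0.0355), held in 1 of 6 refits (adjusted p up to 0.142). Among 32 genes of sialic acid, fucose and chain extension, 3 were higher and 2 lower (15.6%), with a median of 0.11. Fut11, a fucosyltransferase, had 16, 18 and 27 against 91, 94 and 109 (log2 fold change 2.24, SE 0.238, adjusted p = 0.00305 from limma), and B4galt4, a galactosyltransferase, had 18, 24 and 28 against 1, 0 and 1 (log2 fold change -3.92, adjusted p = 0.00323). Both held in all 6 refits, while St3gal5, Fut10 and Mgat4a held in at most 1 (adjusted p up to 0.13). Of 6 galectins, which bind galactose on such glycans, Lgals3 rose from 2472, 2328 and 2138 to 3618, 4027 and 4047 (log2 fold change 0.75, adjusted p = 0.00308) and Lgals1 by 0.41. Lgals1 was lost without MOCK#1 sample 1 or 2 (adjusted p up to 0.0688).

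**Figure D4:**
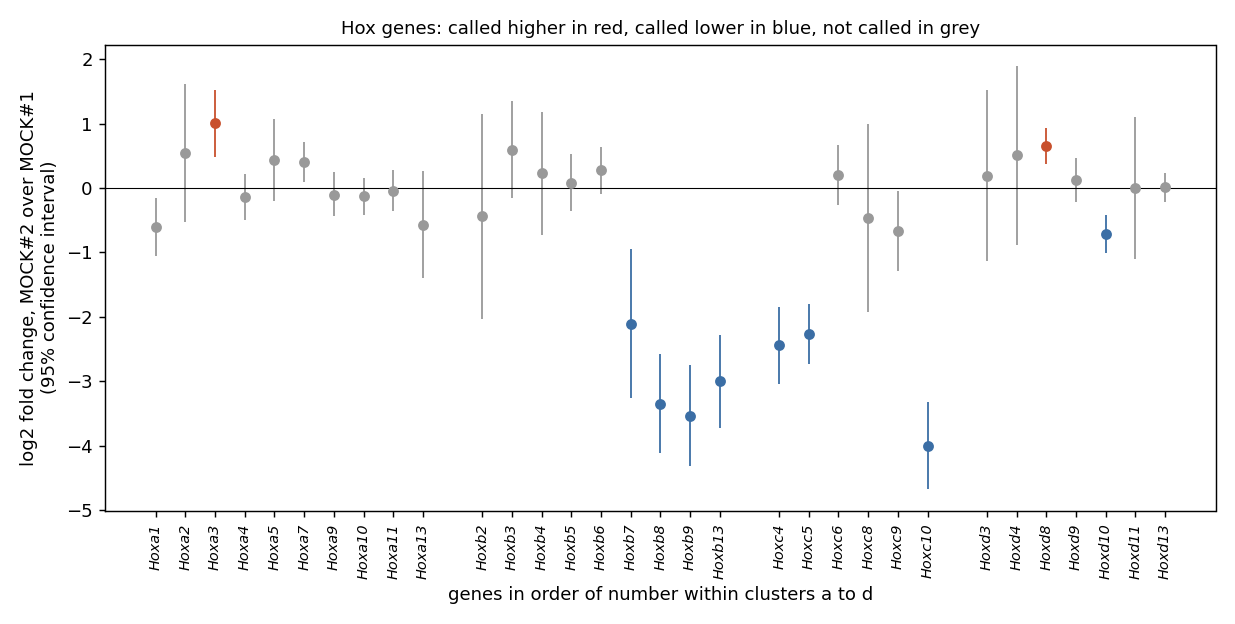
Log2 fold change of MOCK#2 over MOCK#1 with its 95% confidence interval for 32 tested Hox genes, in order of number within the clusters a to d. DEGs are red where higher and blue where lower. Hoxb7 to Hoxb13 lie together below 0, while the intervals of the genes before them in cluster b span 0.

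Hox genes, the transcription factors that record position along the body axis, lie in 4 clusters, and the DEGs are given here by cluster. Of 32 tested, 2 were higher and 8 lower (31.2%), with a median of -0.07. In cluster b, Hoxb7, Hoxb8, Hoxb9 and Hoxb13 were lower and the 5 tested genes from Hoxb2 to Hoxb6 were not DEGs. Hoxb9 (chromosome 11, 96271457 to 96276595) had 161, 195 and 212 normalized counts in MOCK#1 and 23, 9 and 17 in MOCK#2, 11.6-fold apart (log2 fold change -3.54, SE 0.331, adjusted p = 0.00218 from limma). Hoxb6, next in number below Hoxb7, had 138, 132 and 115 against 174, 168 and 128. In cluster c, Hoxc10 had 81, 73 and 65 against 3, 3 and 5, 19.9-fold apart (log2 fold change -4.01, adjusted p = 0.000918), and Hoxc4 and Hoxc5 had log2 fold changes of -2.44 and -2.27. The annotated spans of Hoxc10 and Hoxc5 overlap, and since reads on more than 1 gene were not counted, the counts of both are uncertain. Cluster a held 1 DEG, Hoxa3, with Hoxa9, Hoxa10 and Hoxa11 within 0.12 of 0, and cluster d held Hoxd8, higher, and Hoxd10, lower. The calls of Hoxc10, Hoxb9, Hoxb8, Hoxb13, Hoxc4 and Hoxc5 held in all 6 refits. Hoxd8 was lost without MOCK#1 sample 2, MOCK#1 sample 3 or MOCK#2 sample 1, Hoxd10 without MOCK#1 sample 1, MOCK#1 sample 2 or MOCK#2 sample 2, and Hoxa3 and Hoxb7 in each of the 6 (adjusted p up to 0.146).

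Among imprinted genes, of which usually a single parental copy is read, 2 of 14 tested were higher and 4 lower (42.9%), with a median of -0.19. Igf2r, the receptor that clears IGF2, had 268, 292 and 421 against 1195, 1172 and 1448, 3.89-fold apart (log2 fold change 1.98, SE 0.179, adjusted p = 0.00203 from limma), and Snrpn, a splicing protein, had 30, 31 and 20 against 0, 2 and 1. Gnas, Zim1, Plagl1 and Peg10 made up the rest, with absolute log2 fold changes of 0.37 to 1.85. Igf2r held in all 6 refits, Snrpn and Peg10 were lost without MOCK#1 sample 2 (adjusted p = 0.0502 and 0.0538), and the other 3 held in at most 3 (adjusted p up to 0.169).

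Cell cycle genes gave 7 higher and 2 lower of 38 tested (23.7%), all with an absolute log2 fold change under 1 and a median of 0.04. Of all genes with a mean of at least 50, a level that 36 of the 38 reached, 16.6% were DEGs. The inhibitor Cdkn1b had 445, 513 and 479 normalized counts against 788, 900 and 1057 (log2 fold change 0.92, adjusted p = 0.00582), while the inhibitor Cdkn1a had 459, 422 and 456 against 292, 286 and 271 (log2 fold change -0.65, adjusted p = 0.00457). These inhibitors therefore went in opposite directions, and both calls held in all 6 refits but were lost with passage as a covariate (adjusted p = 0.0657 and 0.0568). Ccne1, Cdk2, Cdk4, Cdkn2c, Pcna and Tyms had log2 fold changes of 0.25 to 0.64 and Cdk6 of -0.68. Of these, Cdk4 was lost without sample 2 of either line (adjusted p up to 0.0668) and Cdk6 without MOCK#1 sample 1 or 2 (adjusted p up to 0.0601), and the other 5 held in at most 2 refits (adjusted p up to 0.135). Of 19 p53 targets and regulators 5 were DEGs (26.3%), with 2 higher, Sesn1 and Sesn2, and 3 lower, Cdkn1a, Ccng1 and Trp53 itself. Trp53 had 2691, 2495 and 2262 against 1849, 1776 and 1573 (log2 fold change -0.52, adjusted p = 0.017), and was lost without MOCK#1 sample 1, MOCK#1 sample 2 or MOCK#2 sample 2 (adjusted p up to 0.0913). Sesn1, a stress-induced inhibitor of mTORC1, rose from 263, 274 and 286 to 606, 737 and 786 (adjusted p = 0.00137), a call held in all 6, while Sesn2 and Ccng1 held in at most 2 (adjusted p up to 0.0945).

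NF-kappaB genes, cytokines and chemokines gave 4 higher and 2 lower of 27 (22.2%), with Vegfc, a lymphatic growth factor, falling from 62, 56 and 73 normalized counts to 10, 10 and 17 (log2 fold change -2.31, adjusted p = 0.00472, held in all 6 refits). Cxcl12, a chemokine, was at 0 in MOCK#1 and had 3, 8 and 15 in MOCK#2, held in 2 of 6 (adjusted p up to 0.0868). Cxcl1, Csf1 and Nfkb1 were higher and Nfkbib lower, with absolute log2 fold changes of 0.34 to 1.28. The response to unfolded proteins and amino acid shortage gave 4 higher of 28 (14.3%), namely Chac1, Cebpb, Cebpg and Sesn2, each held in at most 2 refits (adjusted p up to 0.1). Glycolysis and the hypoxia response gave 1 higher and 2 lower of 30 (10%). Ddit4, an inhibitor of mTORC1, rose from 519, 530 and 711 to 1589, 1749 and 2483 (log2 fold change 1.71, adjusted p = 0.00397) and Pfkp fell by 0.56, both held in all 6, and Egln3 fell by 2.04, held in 1 (adjusted p up to 0.147). Targets of Wnt signaling gave 0 higher and 2 lower of 19 (10.5%), Rnf43 and Fzd7, held in at most 1 (adjusted p up to 0.106). The shares of the last 3 lists are near the background of all genes.

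**Figure D5:**
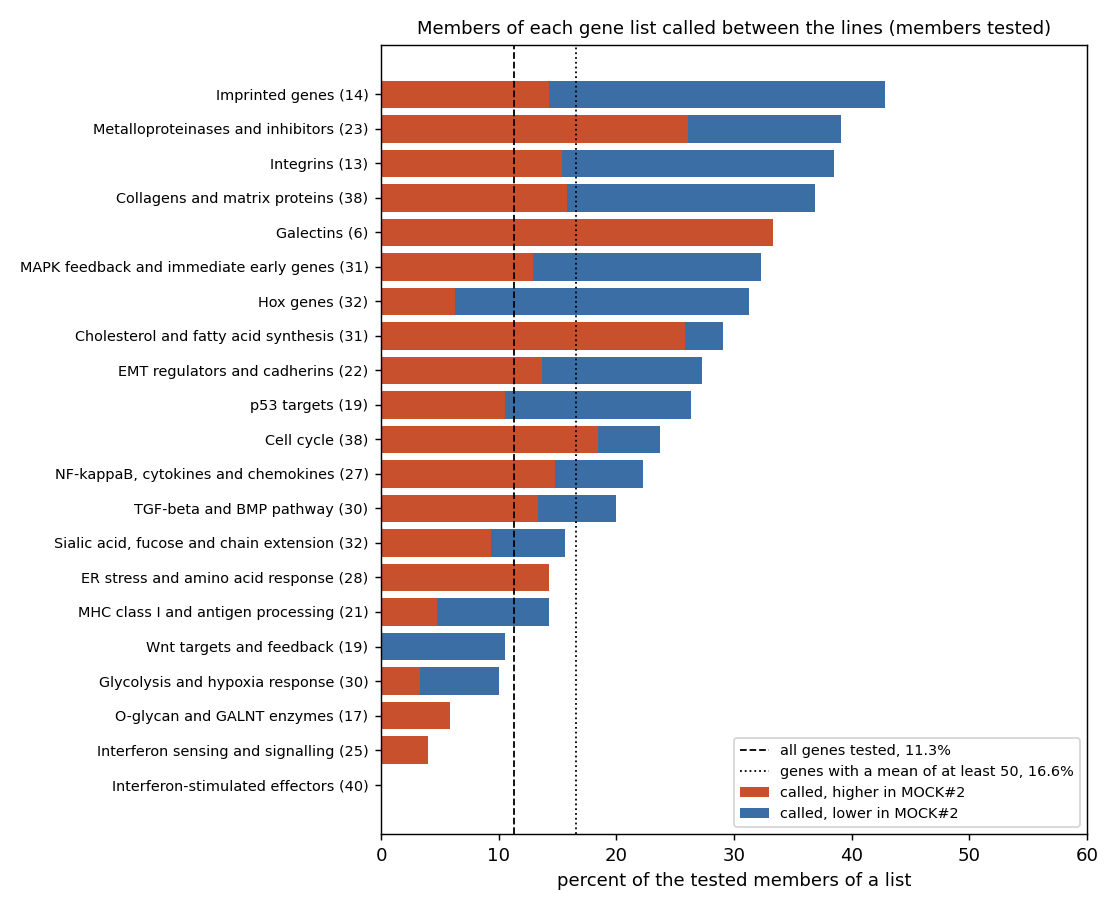
Percent of the tested members of each of 21 gene lists that were DEGs, higher (red) or lower (blue) in MOCK#2, with the number tested in brackets. The dashed line is the share of all genes, 11.3%, and the dotted line that of genes whose mean reached 50, 16.6%. Imprinted genes, metalloproteinases, integrins and matrix proteins reach furthest to the right, and interferon-stimulated effectors are at 0.

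The direction of DEGs differed between chromosomes. Their share lay between 8.56% on chromosome 3 and 16% on chromosome 15, against 11.3% of all genes. It was 12.9% of 834 genes on chromosome 12, 15.3% of 485 on 18 and 10.2% of 1407 on 1. On chromosomes 13 and 4 it was 13.9% of 964 and 12.1% of 1318. On chromosome 12, 17 were higher and 91 lower, on chromosome 18, 11 and 63, on chromosome 1, 29 and 115, and on chromosome 13, 40 and 94. On chromosomes 15 and 4 the balance was the reverse, with 70 higher against 38 lower and 111 against 49. The median log2 fold changes, over genes whose mean reached 10, were -0.18, -0.17, -0.13 and -0.13 on chromosomes 12, 18, 1 and 13. They were 0.17 on chromosome 15 and 0.07 on chromosome 4. Chromosome X had 41 higher and 70 lower, with a median of -0.02. On chromosomes 12 and 15 all 3 samples of MOCK#2 showed the shift, at -0.18 to -0.14 and 0.11 to 0.18 relative to the mean of MOCK#1. DNA copy number was not measured.

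The levels in the other lines were set beside those of the mock lines, without a test since they share these samples. In the line labelled FUT4, Fut4 was at 0 to 1 normalized counts and Fut9 at 171 to 209, so that the target gene goes against its name. MC38-WT, harvested at passages 7 to 9, lay nearer to MOCK#1 for 556 of the 1149 DEGs that were higher in MOCK#2 and nearer to MOCK#2 for 593. For the 1305 lower DEGs it lay nearer to MOCK#1 for 546 and to MOCK#2 for 759. Neither mock line was thus the one that stood away from the parental cells throughout. Of the 22 genes off in MOCK#1 and on in MOCK#2, 0 were off and 6 on in MC38-WT. The double knockout MC38-DKO had 12 off and 0 on, MC38-CMAS KO 6 and 3, and MC38-COSMC KO 9 and 7. In MC38-FUT4 8 were off and 1 on, and in MC38-FUT9 9 and 7. The remaining genes met neither rule in the line in question. Of the 28 genes on in MOCK#1 and off in MOCK#2, 4 were off and 0 on in MC38-WT. In MC38-FUT9 22 were off and 0 on, and in MC38-FUT4 11 and 4. MC38-DKO had 0 off and 14 on, MC38-CMAS KO 5 and 2, and MC38-COSMC KO 0 and 2.

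The levels of single genes divided the lines in ways that cut across the labelled technology. Timp3 had 4 to 5 normalized counts in MOCK#1, 1 to 5 in MC38-DKO and 1 to 12 in MC38-FUT4, but 519 to 697 in MC38-WT, 761 to 943 in MC38-COSMC KO, 957 to 1186 in MC38-CMAS KO, 225 to 359 in MOCK#2 and 1338 to 1570 in MC38-FUT9. Colec12 showed the same division, at 0 to 4 in MOCK#1, MC38-DKO and MC38-FUT4 and at 65 to 543 in the other 5 lines. Col3a1 was high in MOCK#2 and in MC38-FUT4, with 5020 to 13474 and 4918 to 6318, and had 99 to 470 in MC38-FUT9 and 135 to 322 in MC38-WT. Ovol2 was high in MOCK#1 and MC38-DKO, with 134 to 194 and 159 to 239, and at most 26 in every other line. Pappa was above 12 in MOCK#2 only, among all 8 lines.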

How the data were processed

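The authors trimmed reads with Sickle, aligned them to GRCm38 with HISAT2 2.0.4, counted them per gene with featureCounts of Subread 1.5.0-p3, dropping reads on several genes, and normalized with edgeR 3.18.1, with SAMtools 0.1.19 also named, per the methods of the study and the submitters' processing notes. Libraries were TruSeq Stranded mRNA, and the strand setting of the counting is not given in the sources used here. As deposited, values carry the unit score, since the authors multiplied each library's counts by its own factor and then rounded them. They are not raw counts, and no count model was run on them. In the 6 mock samples a single read amounts to 0.8651 to 1.332 normalized counts, estimated from the spacing of the values.

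Only genes with at most 4 zeros in the 6 mock samples entered. Log2(value + 1) was tested with limma 3.58.1 in R 4.3.3 (eBayes with trend), with no covariate and Benjamini-Hochberg adjustment over 21667 genes, and an adjusted p below 0.05 called a DEG. Summaries and plots were made in Python 3.11.15 with pandas 2.3.3, numpy 2.4.6 and matplotlib 3.10.9. Tested on simulated data in which 200 of 21260 genes were changed 2-fold, limma recovered 132, all in the right direction, with 5 false calls. The changed genes were drawn without the lowest genes, and the simulated noise was independent between samples. Recovery of low genes and effects shared by the genes of a sample were thus not covered.

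The 25 gene lists and the rules for named genes were chosen with earlier results of these data known. Lists are described by counts and medians, with no test of a list. Named genes are the targets C1galt1c1, Cmas, Fut4 and Fut9, the 12 protein-coding DEGs of each direction with the largest fold change, a mean of at least 50 in the higher line and no overlap, the 5 of each direction with the smallest adjusted p and a mean of at least 500, list members, and genes with at most 3 in one line and at least 20 in the other. Of 646 list entries 644 matched a gene. Alternatives were the pseudocount, filters, scalings, a fit of all 24 samples, passage as a covariate, eBayes without a trend, a block for the replicate number, a fold threshold, and leaving out each library, which gave the 6 refits. Some genes that meet these rules are not reported here. No 2 libraries of the same mock line held identical values.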

Additional observations from a re-analysis of the deposited data

How the results depend on the processing

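For all genes, the count of 2454 DEGs was within 1.5 times under other pseudocounts, filters and scalings, the replicate block (2168, 1104 higher and 1064 lower) and a mean of at least 50 (2378, chosen after seeing the data). It moved to 3976 with all 24 samples in a single fit, 1389 without a trend, 583 with passage as a covariate (466 of them among the 2454) and 1064 with an absolute log2 fold change above 1. Leaving out 1 library gave 634 (without MOCK#1 sample 2) to 1708 (without MOCK#2 sample 3). With a mean of at least 50, 53.7% of the DEGs were higher, beside 46.8% of all DEGs, and with values rescaled to the same total 43%.

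Of 551 distinct tested list members 117 were DEGs. This moved to 62 without a trend, 40 with passage as a covariate and 62 with the fold threshold, was 171 with all samples in a single fit and 125 with the replicate block (MHC class I and antigen processing 6 in place of 3; interferon effectors 4 in place of 0, Ifit1, Ifi44, Lgals3bp and Ifitm3, all higher in MOCK#2), and 38 to 87 with 1 library left out. Without MOCK#2 sample 3, 1 interferon effector was called, lower in MOCK#2. No named DEG was called in the opposite direction under another setting. Genes that were not DEGs are not covered by this, and for some, such as Isg15, the sign depended on MOCK#2 sample 3. Target genes called numbered 0, and 0 to 1 with 1 library left out (C1galt1c1 without MOCK#2 sample 3). The 5 chromosomes with a median beyond 0.1 were 4 with passage as a covariate and 4 to 5 with a library left out.

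Same-numbered samples of the lines correlated across genes with r = 0.1585, 0.09482 and 0.2697 after the line means were removed, and each sample correlated best with its own number. This is a hint from the data only. The lines share numbers but no stated pairing, so the block is no main result. Depth limits genes at 1 to 3 normalized counts, where a zero is compatible with a few reads, and intervals cover the spread of 3 harvests. The lines share passage 6 alone, so a fit with passage as a covariate estimates the difference between the lines less precisely. A call lost in that fit therefore does not show that the gene changes with passage. Why passage as a covariate lowers the count was not tested.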

Other observations

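The single genes named here were chosen after their values were seen, from no list, and stand for no group. Pax5, the B cell transcription factor, had 569, 539 and 409 normalized counts in MOCK#1 and 89, 94 and 113 in MOCK#2 (log2 fold change -2.34, adjusted p = 0.000878 from limma). Syk, a kinase of immune receptors, had 61, 42 and 35 against 3, 1 and 3, Cd6, a receptor of T cells, 36, 74 and 71 against 4, 6 and 5, and Tnfrsf9, which encodes 4-1BB, 110, 90 and 80 against 7, 9 and 11. Vav1, an exchange factor downstream of antigen receptors, went the other way, with 3, 0 and 3 against 62, 64 and 99. With passage as a covariate Syk and Vav1 were lost (adjusted p = 0.0567 and 0.0721). The leukocyte markers Cd3e, Cd4 and Cd8a were at 0, and Ptprc, which encodes CD45, had 3, 1 and 1 against 0, 0 and 0.

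Fgf10, a mesenchymal growth factor, had 32, 19 and 14 against 332, 456 and 778 (log2 fold change 4.52, adjusted p = 0.00168 from limma). The antisense gene Gm16263 lies within its span, and reads of the pair cannot be told apart without strand. Foxf1, the relative of Foxf2, had 175, 164 and 250 against 304, 373 and 397 (log2 fold change 0.88, adjusted p = 0.028), a call held in 1 of 6 refits (adjusted p up to 0.124).

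Members of the Rhox and Xlr families on the X chromosome were also chosen after their values were seen, and their copies share sequence, so that single members are uncertain. Of the Rhox homeobox genes, Rhox2h had 118, 97 and 83 against 12, 2 and 5, while the much read Rhox5 had 4240, 4188 and 4718 against 4560, 4598 and 4924 (log2 fold change 0.10, adjusted p = 0.426). In the Xlr family, Xlr4b had 3, 2 and 0 against 50, 75 and 72, while Xlr3c had 446, 460 and 449 against 429, 419 and 457. The call of Rhox2h was lost without MOCK#1 sample 1 or 2 (adjusted p up to 0.061).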
